A study of Mus musculus with 18 samples.

Results

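The transcripts of 39 genes of DNA replication were followed through 18 mouse RNA-seq libraries. The genes were chosen by name, as known factors of origin licensing, fork synthesis, nucleotide supply and entry into S phase, and all 39 were found in the endothelial table of 55401 gene identifiers and in the EO771 table of 22612 lines. The endothelial libraries came from cells sorted from young female wild-type C57BL/6 mice, in 4 groups of 3. Blood vessel endothelial cells (BECs) were taken from normal mammary fat pads (BEC normal) or from EO771 tumours grown in the fat pad (BEC tumour). High endothelial cells (HECs), which line the venules through which lymphocytes enter lymph nodes, were taken from inguinal lymph nodes of mice without a tumour (HEC normal) or with one (HEC tumour, described in the labels as from metastases to the node). The sort took CD45-CD31high cells and split them by peripheral node addressin, so BEC and HEC differ in marker and in organ at once. EO771, a mouse breast cancer line, was grown in culture and given vehicle or 12-HETE, a lipid made from arachidonic acid by a 12-lipoxygenase, in 2 groups of 3 libraries. The study describes its replicates as independent experiments but does not tie the libraries to mice or dishes, so the p-values measure only the spread between these libraries, which may be technical.

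Before S phase, the origin recognition complex (Orc1, Orc6) with Cdc6 and Cdt1 loads the ring of Mcm2 to Mcm7 onto DNA, and geminin (Gmnn) blocks Cdt1 once an origin has been licensed. Cdc45 and the GINS proteins then turn the ring into an active helicase. At the fork, DNA polymerase alpha with primase (Pola1, Pola2, Prim1, Prim2) lays primers, replication factor C (Rfc2 to Rfc5) loads the sliding clamp Pcna, polymerases delta and epsilon (Pold1, Pole) copy the strands, and Fen1 and Lig1 finish the lagging strand. Ribonucleotide reductase (Rrm1, Rrm2), thymidylate synthase (Tyms) and thymidine kinase (Tk1) supply nucleotides. Cyclin E (Ccne1, Ccne2) and the transcription factor E2f1 drive entry into S phase, and Uhrf1 helps to carry DNA methylation over to the new strand. Many of these genes are textbook E2F targets. Resting endothelium is known to divide rarely, while tumour vessels grow and the endothelium of a reacting lymph node expands.

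E2F binding letters are the sequence feature for which these genes are known, so their promoters were searched for them. RefSeq promoters of GRCm38.p6, each of 250 bases before and 50 after a start site, were at hand for 30 of the 39 genes. TTTCCCGC, TTTCGCGC, TTTGCCGC or TTTGGCGC, on either strand and with overlaps allowed, stood in 13 of their 35 promoters (37.1%), against 2.26% of the 32851 promoters of the table. TTTGAA, the letters of the cell cycle homology region of late cell cycle genes, stood in 4 of the 35 (11.4%), against 17.9% of all promoters and 24 of the 30 promoters of 28 mitosis genes (80%). The genes with an E2F match were Mcm3, Mcm5, Mcm6, Mcm7, Cdc6, Cdt1, Gins3, Orc1, Pola1, Pold1, Rfc3, Lig1 and Uhrf1. A match describes the letters only. Shown are a pair of licensing genes with a match, in capitals, and Rrm2, which was higher with tumour in both cell types and has no match in its window. They stand on the plus strand, with Mcm5 at chr8:75109259-75109558, Cdc6 at chr11:98907901-98908200 and Rrm2 at chr12:24708004-24708303. The Mcm5 capitals are 2 overlapping matches that begin 153 and 149 bases before the RefSeq start, and the Cdc6 match begins 138 bases before its own. GENCODE begins the Mcm5 gene later, at chr8:75109569, past the end of the window shown. It begins the Cdc6 gene earlier, at chr11:98907801, before the window shown, so by GENCODE the Cdc6 match lies inside the gene.
Mcm5: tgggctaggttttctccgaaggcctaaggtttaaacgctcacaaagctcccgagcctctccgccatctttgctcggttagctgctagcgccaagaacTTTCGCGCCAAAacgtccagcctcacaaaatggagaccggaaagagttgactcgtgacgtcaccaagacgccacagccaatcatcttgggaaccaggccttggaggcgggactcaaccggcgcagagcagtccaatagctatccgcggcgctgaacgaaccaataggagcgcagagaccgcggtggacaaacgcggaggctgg
Cdc6: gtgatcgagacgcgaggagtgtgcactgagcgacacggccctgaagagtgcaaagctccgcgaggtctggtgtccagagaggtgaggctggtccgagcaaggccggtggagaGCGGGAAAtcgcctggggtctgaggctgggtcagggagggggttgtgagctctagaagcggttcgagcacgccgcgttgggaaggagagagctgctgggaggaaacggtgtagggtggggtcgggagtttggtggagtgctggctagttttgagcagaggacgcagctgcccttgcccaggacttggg
Rrm2: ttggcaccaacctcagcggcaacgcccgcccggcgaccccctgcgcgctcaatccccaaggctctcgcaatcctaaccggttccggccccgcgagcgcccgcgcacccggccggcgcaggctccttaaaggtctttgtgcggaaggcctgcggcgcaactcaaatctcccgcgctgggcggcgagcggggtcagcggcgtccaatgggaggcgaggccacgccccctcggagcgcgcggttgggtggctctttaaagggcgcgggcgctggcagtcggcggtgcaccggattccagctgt

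Totals ran from 56410964 to 79357993 estimated counts per endothelial library and from 17294591 to 18624179 counts per EO771 library. Marker levels are given as counts per 1000000 of the library's total (CPM). Pecam1, the gene of the sorting marker CD31, lay between 609 and 879 in the 12 endothelial libraries, and the 10 general endothelial markers summed to between 2419 and 3671. The 8 high endothelial markers summed to 984 to 1340 in HEC normal and 2235 to 3064 in HEC tumour, and to 13.8 to 18.2 in the BEC libraries. In each HEC group 6 of the 8 genes reached a mean of 1, and Ackr1 and Madcam1 were at 0 in HEC normal. Glycam1, a high endothelial mucin, lay between 573 and 1105 in the HEC libraries and at 0 in the BEC libraries. Chst4, a high endothelial sulfotransferase, was at 291 and 297 in HEC normal 1 and 3 but at 0.06 in HEC normal 2, and Fut7 was at 221 in HEC tumour 3 against 1021 and 1011 in the other two, so results that moved without HEC normal 2 are given both ways. The 8 myeloid markers summed to 1477 to 1980 in BEC tumour and 114 to 136 in BEC normal, and to 357 to 375 in HEC tumour against 485 to 510 in HEC normal. In BEC tumour all 8 were above 0, with Cd68 (836 to 924) and Lyz2 (567 to 919) the most abundant and Ptprc, the pan-leukocyte gene CD45, at 5.95 to 12.8. In HECs the sum was nearly all Cd68 (477 to 503 in HEC normal and 350 to 370 in HEC tumour). In each HEC group 3 of the 8 genes reached a mean of 1, and Ptprc was at most 0.435. The 8 epithelial and tumour cell markers summed to 16.8, 20.6 and 104 in BEC tumour 1, 2 and 3, to at most 35.0 in the other endothelial libraries and to 3623 to 4601 in vehicle-treated EO771 cells. Fibroblast and pericyte markers summed to 827 to 836 in BEC normal and 89.97 to 121 in BEC tumour, and to at most 26.4 in the HEC libraries. T cell, B cell and adipocyte markers summed to at most 8.05, 11.7 and 6.18 in the endothelial libraries. Lymphatic endothelial markers summed to between 202 and 362, with Ccl21a at 0 in BEC normal and in both HEC groups. The part of these cells in the results was not tested. In bulk RNA, fewer cycling cells and less RNA per cycling cell cannot be told apart.

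Replication genes were well expressed in every endothelial group, also in BECs of the normal fat pad. To compare genes with each other, levels were taken as normalised counts per kilobase of merged exons. By this measure the median member stood at percentile 86.5 of 18486 genes in BEC normal and 88.3 in BEC tumour. It stood at 87.8 in HEC normal and 86.3 in HEC tumour, and all 39 stood over percentile 50 in each of the 4 groups. Pcna had the highest level in all 4, from 15010 per kilobase in BEC normal to 25946 in HEC tumour. Gins3 had the lowest level in 3 of them, 439 to 616 per kilobase, and in HEC normal the lowest was Ccne2 at 470. In the 4 endothelial groups the 6 subunits of the Mcm ring differed by at most 2.59 times between the highest and the lowest, while the 4 GINS subunits differed by 4.31 to 6.50 times. Mcm4 was the lowest of its ring, and Gins3 the lowest of its complex, in every endothelial group. In EO771 cells the median member stood at percentile 79.6 with vehicle and 82.4 with 12-HETE, Pcna was again the highest and Fen1 the lowest.

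Summed over the 39 genes, replication transcripts made up 5239 ± 87.3 CPM in BEC normal (mean ± SD, n = 3, as for the other sums) and 7505 ± 103 in BEC tumour. In HECs the sum was 5903 ± 88.4 without and 6180 ± 30.2 with a tumour. No library of 1 of these groups overlapped those of another. In EO771 cells the sum was 4831 ± 178 with vehicle and 5720 ± 67.4 with 12-HETE, again without overlap. These sums weigh the genes with the highest counts most, so single genes are described next.

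**Figure D1:**
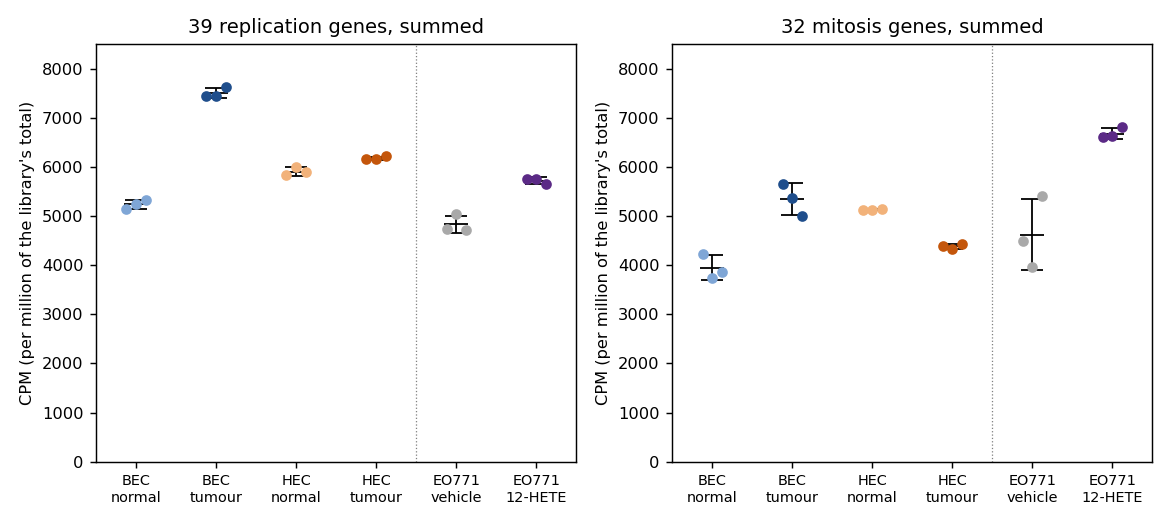
Summed level of the 39 replication genes (left) and of 32 mitosis genes (right) in each library, in CPM; points are libraries and bars the mean ± SD of 3. The replication sum was highest in BEC tumour (7444 to 7623), while the mitosis sum was 5113 to 5137 in HEC normal and 4334 to 4428 in HEC tumour.

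**Figure D2:**
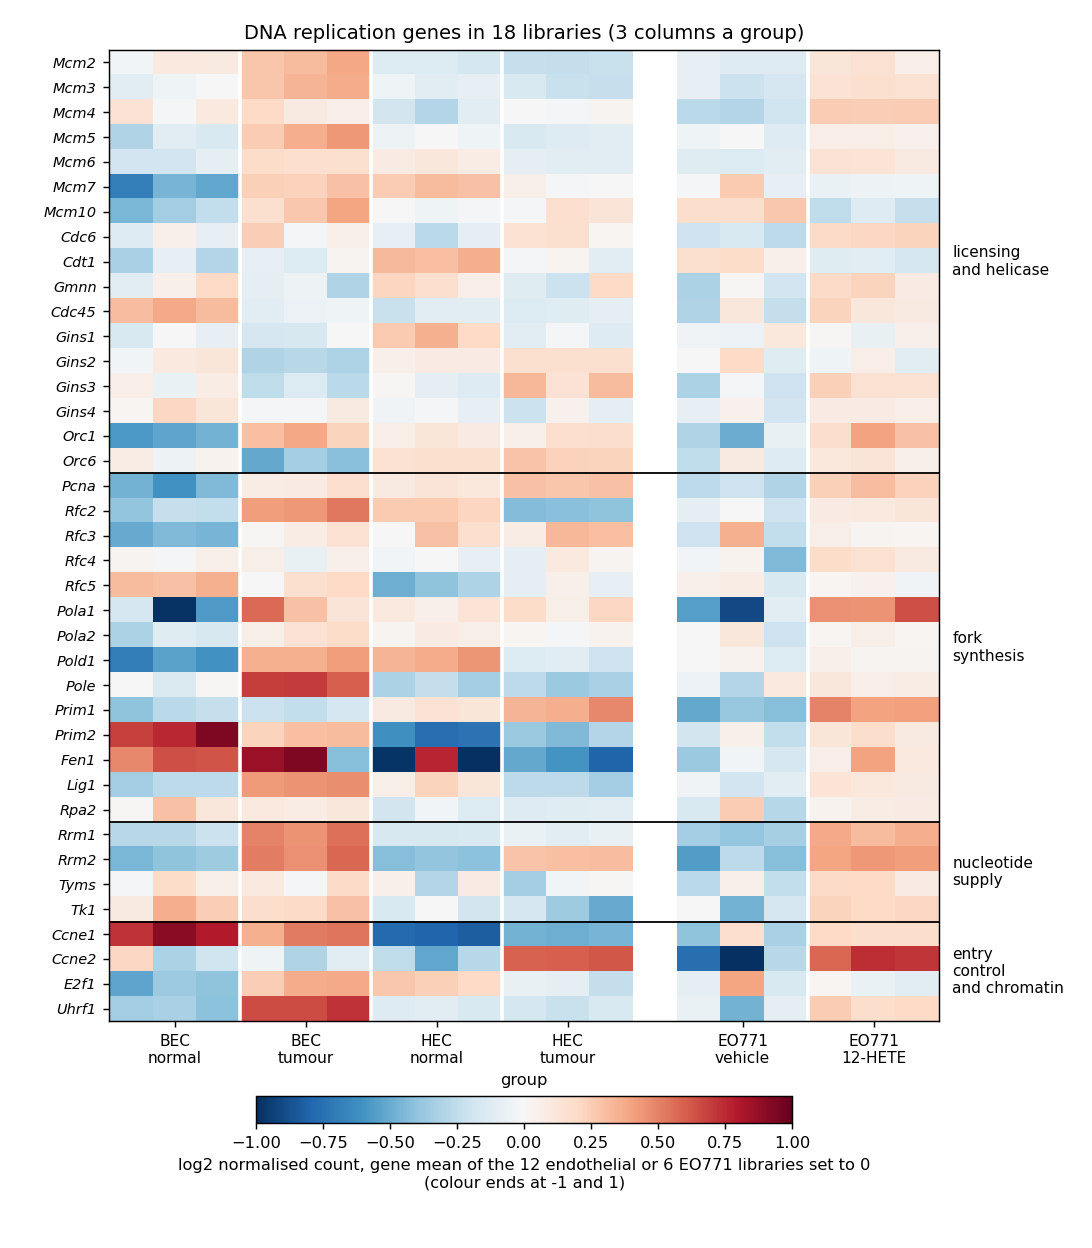
Log2 normalised count of each of the 39 genes in each library, relative to the gene's mean over the 12 endothelial or the 6 EO771 libraries; red is above and blue below that mean, with the genes in their 4 roles. BEC tumour had the highest endothelial mean for 17 genes and BEC normal the lowest for 16, with no share over all genes beside these counts. With 12-HETE 18 genes were called higher than with vehicle (all genes 22.7%).

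BECs of the tumour were compared with BECs of the normal fat pad, to show what differs in the vessels of the primary site. Of the 39 genes, 19 rose and 7 fell at an adjusted p under 0.05 in the DESeq2 fit, and 13 did not pass. Among all 18446 endothelial genes tested, 26.6% rose and 27.3% fell by the same rule. With a fold over 2 required as well, 1 member rose (Uhrf1) and 0 fell, against 12.5% and 10.9% of all genes, and edgeR's quasi-likelihood test called 2 higher (Uhrf1 and Pold1) and 0 lower. The median log2 change was 0.17 over the list and 0.01 over all genes.

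In the licensing and helicase group, 7 of 17 genes rose with tumour in BECs, namely Mcm2, Mcm3, Mcm5, Mcm6, Mcm7, Mcm10 and Orc1. Mcm2 was at 24238, 26484 and 26299 normalised counts in BEC normal and at 30067, 30913 and 32406 in BEC tumour. Mcm5 was at 18519, 21280.3 and 20579 and then at 27299, 29461 and 30821. For neither gene did the groups overlap, and the log2 fold changes were 0.28 ± 0.05 and 0.54 ± 0.07 (± SE, as below; adjusted p = 6.18e-08 and 4.35e-15). Mcm4 differed by 0.04 ± 0.07 (adjusted p = 0.617), while Mcm7 rose by 0.81 ± 0.06 (adjusted p = 2.08e-37), so the subunits of the ring did not move by 1 factor. Orc1, the large subunit of the origin recognition complex, rose by 0.83 ± 0.07. Statements on the overlap of libraries, here and below, have no share over all genes beside them and are not read as particular to the list.

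The 4 genes that fell in this group were Cdc45, Gins2, Gins3 and Orc6, which code for parts of the active helicase and for the small origin subunit. Orc6 was at 5142, 4712 and 4997 in BEC normal and at 3419, 3853 and 3653 in BEC tumour (log2 fold change -0.44 ± 0.06, adjusted p = 1.32e-12). Cdc45 was at 6162, 6494 and 6223 and then at 4647, 4801 and 4837 (-0.40 ± 0.05, adjusted p = 3.73e-15). For both, every tumour library was under every normal library. Orc1 and Orc6, subunits of one complex, thus moved in opposite directions. Cdc6 was at 4039.8, 4581 and 4173 in BEC normal and at 5250.1, 4360.2 and 4614 in BEC tumour, and the groups overlapped (adjusted p = 0.17). Gmnn was at 2527, 2832 and 3141 and then at 2566, 2636 and 2225, also with overlap (adjusted p = 0.201).

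Of the 14 genes of fork synthesis, 8 rose (Pcna, Rfc2, Rfc3, Pola1, Pola2, Pold1, Pole and Lig1) and 2 fell (Rfc5 and Prim2). Pold1, the catalytic subunit of polymerase delta, was at 5959.6, 6642 and 6343 in BEC normal and at 12310.0, 12324 and 12833 in BEC tumour. Its log2 fold change of 0.98 ± 0.06 (adjusted p = 2.34e-65) was just under the 2-fold limit. Prim2, the large primase subunit, went the other way, from 5422, 5693 and 6455 to 3944, 4162 and 4193 (-0.51 ± 0.08, adjusted p = 4.4e-09). Pcna was at 23302, 21260.3 and 23792 and then at 33928, 34194 and 36362 (0.61 ± 0.05, adjusted p = 7.11e-30). For none of these 3 did the groups overlap. Pole, the catalytic subunit of polymerase epsilon, rose by 0.71 ± 0.06 and Lig1, the ligase that seals Okazaki fragments, by 0.74 ± 0.06. Pola1 rose by 0.88 ± 0.18, with uneven libraries in BEC normal (3975, 2251 and 3025), and without BEC normal 1 it passed the 2-fold limit.

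For nucleotide supply, both subunits of ribonucleotide reductase rose with tumour in BECs, and Tyms and Tk1 did not pass. Rrm2 was at 22272, 23152 and 23843 in BEC normal and at 43674, 41946 and 45448 in BEC tumour (0.92 ± 0.04, adjusted p = 7.28e-97). Rrm1 rose by 0.76 ± 0.04 (adjusted p = 5.38e-84). Tyms was at 6412, 7361 and 6734 and then at 6916, 6430.3 and 7405, which overlapped (0.02 ± 0.13, adjusted p = 0.928).

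Uhrf1 had the largest change of the list, from 15233, 15459 and 14632 in BEC normal to 30518, 30415 and 32088 in BEC tumour (1.04 ± 0.04, adjusted p = 2.25e-129). E2f1 was at 4541, 5069 and 4937 and then at 7726, 8449 and 8491 (0.76 ± 0.07, adjusted p = 3.29e-26). Ccne1 fell, from 4474, 5054 and 4684 to 3470.1, 3893 and 3919.7 (-0.33 ± 0.07, adjusted p = 1.28e-05). The groups of all 3 stood apart, and Ccne2 did not pass (adjusted p = 0.738). The calls of Gins3 and Rfc5 (adjusted p = 0.0115 and 0.0202) depended on the setting and on single libraries. With all libraries kept, Gins3 lost its call in edgeR (0.053) and with the BEC libraries fitted alone (0.0806), and Rfc5 in edgeR (0.0772), with library totals as size factors (0.0712) and with the BEC libraries alone (0.117). Gins3 also lost it without BEC normal 1 (0.0502), BEC normal 3 (0.0535), BEC tumour 1 (0.0572) or BEC tumour 3 (0.0609), and Rfc5 without BEC normal 3 (0.0733) or BEC tumour 1 (0.126). Cdt1, not called, passed in edgeR (0.0377), with TMM factors (0.0117), library totals (0.0141) or values divided by the step (0.0489), and without BEC normal 2 (0.00236). Prim1 passed with TMM factors (0.0445) or library totals (0.0468).

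In HECs, fewer members changed with tumour, and they went both ways. Of the 39 genes, 10 rose and 9 fell at an adjusted p under 0.05 (all genes 17% and 18.6%), and 0 passed with a fold over 2 in either direction (all genes 4.6% higher and 3.23% lower; edgeR also called 0 in each direction). The median log2 change was 0.00, against 0.02 over all genes. Without HEC normal 2, 8 rose and 9 fell.

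Among the licensing genes, Mcm4, Cdc6 and Gins3 rose and Mcm3, Mcm6, Mcm7, Cdt1 and Gins1 fell. Mcm2 was at 22512, 22526 and 21940.5 in HEC normal and at 21082, 20936 and 21247 in HEC tumour, with a log2 fold change of -0.08 ± 0.05 (adjusted p = 0.195). Mcm5 was at 22081, 22919 and 22239 and then at 20561, 20868 and 21130.0 (-0.10 ± 0.07, adjusted p = 0.229). Neither gene passed, although the libraries did not overlap, and with the HEC libraries fitted alone both did (adjusted p = 0.00416 and 0.00129), as did Mcm2 with TMM factors (0.0381). Cdc6 was at 4182, 3667 and 4162 and then at 4911, 4948 and 4475 (0.26 ± 0.10, adjusted p = 0.0246). Gmnn was at 3174, 3079 and 2859 and then at 2519, 2356 and 3132, with overlap (adjusted p = 0.278, and 0.0304 without HEC tumour 3).

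The smaller calls in this group depended on the setting and on single libraries. With all libraries kept, Cdc6 (adjusted p = 0.0633) and Mcm4 (0.057) lost their calls in edgeR and Mcm3 with library totals as size factors (0.377). Cdc6 also lost its call without HEC normal 2 (adjusted p = 0.147), HEC tumour 1 (0.0982) or HEC tumour 2 (0.11). Mcm4 lost it without HEC normal 2 (0.1) or HEC tumour 3 (0.0733). Mcm3 lost it without HEC normal 1 (0.118), HEC normal 3 (0.0753), HEC tumour 2 (0.12) or HEC tumour 3 (0.115). Gins2 gained one with library totals (0.000854) and without BEC normal 1 (0.0347), and Orc6 with library totals (0.0226). The causes were not tested.

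At the fork, Rfc2, Pold1 and Lig1 fell with tumour in HECs. Rfc2, a clamp loader subunit, was at 13949.6, 13993 and 13481 in HEC normal and at 8639.6, 8718 and 8796 in HEC tumour (log2 fold change -0.66 ± 0.06, adjusted p = 2.83e-29). Pold1 was at 12198, 12462 and 13105 and then at 8752, 8878 and 8354 (-0.54 ± 0.06, adjusted p = 8.07e-20). Lig1 was at 13673, 15319 and 14337 and then at 10964, 10954 and 10381 (-0.42 ± 0.06, adjusted p = 7.6e-13). In each of the 3 the tumour libraries lay under the normal libraries. Pcna, Rfc5, Prim1 and Prim2 rose instead. Pcna was at 34310.1, 35268 and 34808 and then at 39549, 39079.6 and 39531 (0.18 ± 0.05, adjusted p = 0.00302). Rfc5, in the same clamp loader as Rfc2, was at 3001, 3194 and 3406 and then at 3939, 4362 and 3971 (0.35 ± 0.08, adjusted p = 5.23e-05).

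Rrm2 was the nucleotide gene that rose in HECs, from 22757, 23305 and 23036 in HEC normal to 37294, 37551 and 37877 in HEC tumour (0.71 ± 0.04, adjusted p = 2.18e-56). Its partner Rrm1 differed by 0.07 ± 0.04 (adjusted p = 0.123, but 0.0139 with the HEC libraries fitted alone and 0.000205 with library totals). Tyms was at 6688, 5276 and 6862 and then at 5126, 6358 and 6514, with overlap (adjusted p = 0.753). Tk1 did not pass (adjusted p = 0.0823, but 0.0265 with TMM factors, 0.0215 with the HEC libraries alone and 0.0117 without HEC tumour 1).

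Both E-type cyclins rose in HECs with tumour while E2f1 fell. Ccne2 was at 1606, 1331 and 1576 in HEC normal and at 2874, 2894 and 2943 in HEC tumour (log2 fold change 0.95 ± 0.14, adjusted p = 6.17e-10). Ccne1 was at 1583, 1560.3 and 1534 and then at 1954, 1934 and 1959 (0.32 ± 0.08, adjusted p = 0.000117). E2f1 was at 7861, 7701 and 7497 and then at 6188, 6097 and 5544 (-0.37 ± 0.07, adjusted p = 1.23e-06). The groups of all 3 were apart. Uhrf1, with the largest change in BECs, was at 17714, 17939.9 and 17419.5 and then at 17160.2, 16583 and 17495 and did not pass (adjusted p = 0.387).

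**Figure D3:**
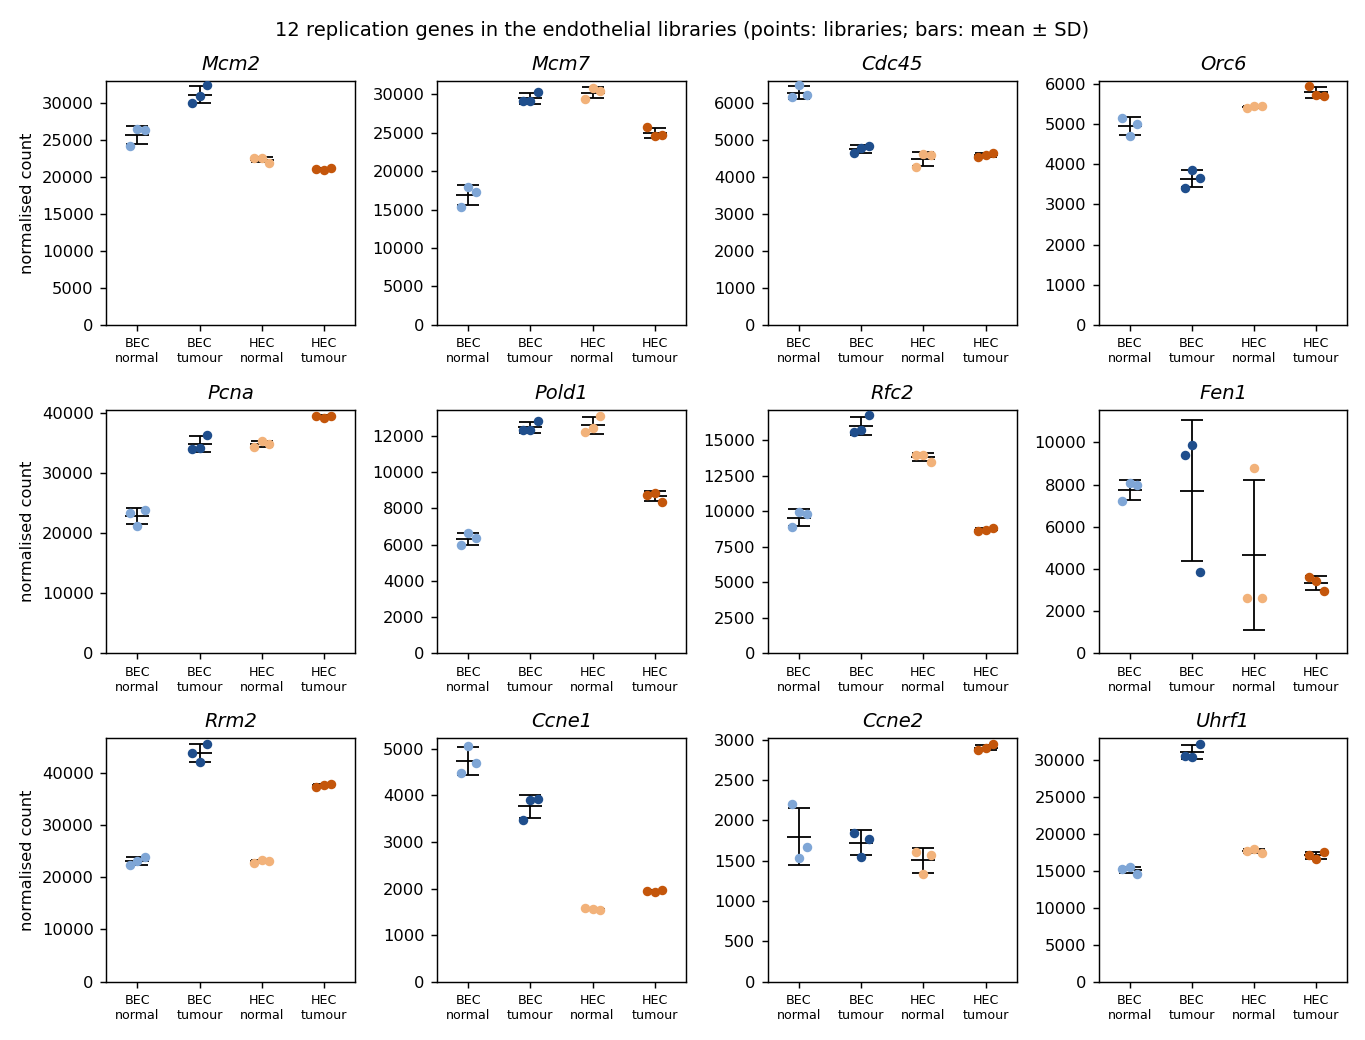
Normalised count of 12 genes in the 3 libraries of each endothelial group, with the mean ± SD; each axis starts at 0. Pold1 and Rfc2 were higher with tumour in BECs and lower with tumour in HECs, Uhrf1 stood apart in BEC tumour, and Fen1 had a single library far from the others in BEC tumour and in HEC normal.

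The change with tumour was then compared between the cell types in the same fit, as the log2 change in HECs less that in BECs (the interaction). It passed for 29 of the 39 genes, with a lower change in HECs for 21 and a higher one for 8. Over all genes 23.8% passed lower and 23% higher. With a fold over 2 required, 6 passed lower (Pold1, Rfc2, Lig1, E2f1, Uhrf1 and Mcm7; all genes 12.1%) and 1 higher (Ccne2; all genes 11.2%). The median was -0.36 over the list and 0.00 over all genes. Of 13 genes called in both cell types, 2 rose in both (Pcna and Rrm2), 7 rose in BECs and fell in HECs (Mcm3, Mcm6, Mcm7, Rfc2, Pold1, Lig1 and E2f1), and 4 fell in BECs and rose in HECs (Gins3, Rfc5, Prim2 and Ccne1). These counts of genes called in both have no share over all genes beside them, so they are not read as particular to the list.

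Pold1 had the largest difference, at -1.52 ± 0.08 (adjusted p = 3.69e-78), followed by Rfc2 at -1.41 ± 0.08 (adjusted p = 1.05e-66) and Lig1 at -1.16 ± 0.08 (adjusted p = 2.96e-47). Rfc2 was at 8872, 9945 and 9816 in BEC normal and at 15560.2, 15755 and 16767 in BEC tumour, and Lig1 at 10312, 10991 and 10944 and at 17651, 17925 and 18188. For each of the 3, every BEC tumour library stood over every BEC normal library, and every HEC tumour library under every HEC normal library. Of the merged exon bases, 952 of 6303 in Rfc2 overlap Lat2 and 247 of 4268 in Lig1 overlap Zswim9, on the opposite strand. The part of these overlaps in the differences was not tested. Ccne2 led the other direction at 1.01 ± 0.20 (adjusted p = 3.21e-06), then Prim2 at 0.85 ± 0.12 (adjusted p = 1.08e-11) and Ccne1 at 0.65 ± 0.10 (adjusted p = 2.16e-09). Ccne2 fell under the 2-fold limit without BEC normal 1, BEC tumour 2, HEC normal 2 or HEC tumour 3, and in edgeR, which left 0 genes past it (edgeR again called 6 lower).

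Among the licensing genes, Mcm2, Mcm3, Mcm5, Mcm6, Mcm7, Mcm10, Cdt1, Gins1 and Orc1 were in the lower set and Cdc45, Gins2, Gins3 and Orc6 in the higher set. Both reductase subunits were in the lower set, Rrm1 at -0.68 ± 0.05 and Rrm2 at -0.21 ± 0.06, and Rrm2 is thus a gene that rose in both cell types and less so in HECs. Gins1 lost its call without BEC normal 1 (adjusted p = 0.0534), where Prim1 gained one (0.00975), as it did with library totals (0.0276). The myeloid sum, given above, was likewise higher with tumour in BECs and lower with tumour in HECs, where it was nearly all Cd68. The part of the myeloid sum in the difference was not tested.

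**Figure D4:**
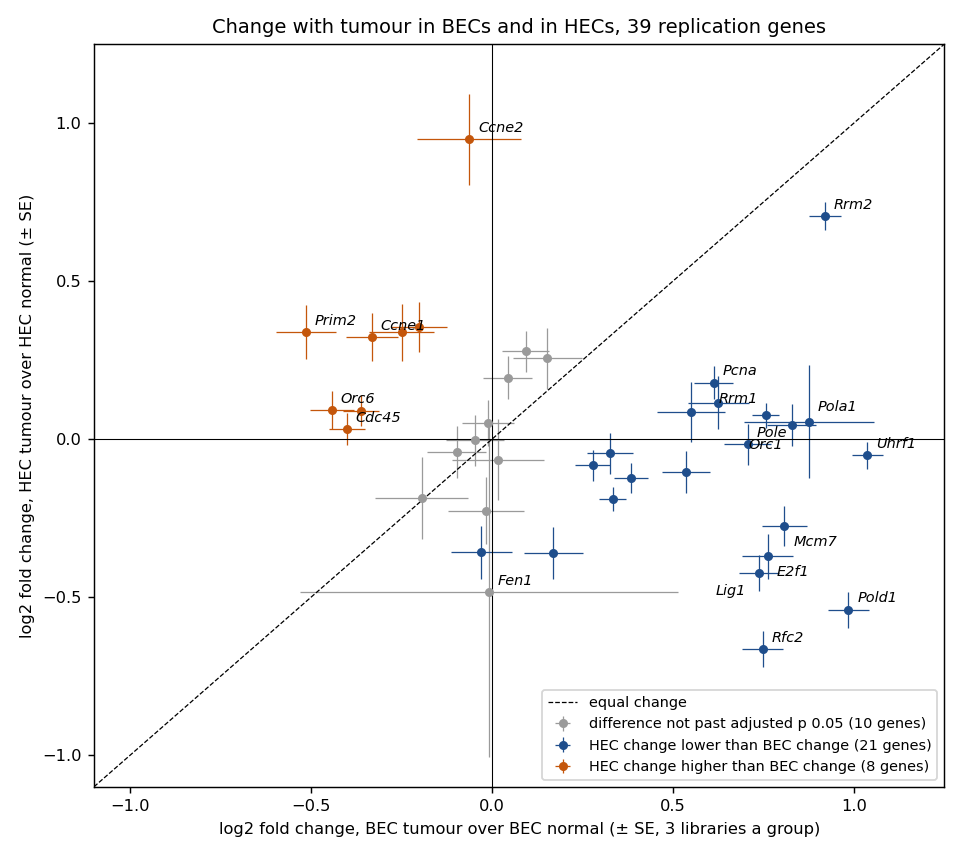
Log2 fold change with tumour in BECs (x axis) and in HECs (y axis) for the 39 genes, ± SE of the DESeq2 fit, 3 libraries a group; blue and orange mark genes whose changes differed at an adjusted p under 0.05, and the dashed line marks equal change. Pold1 and Rfc2 lie farthest below the line (differences of -1.52 and -1.41) and Ccne2 farthest above it (1.01).

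HECs and BECs were next compared in mice without a tumour. HEC normal had 19 of the 39 genes higher and 9 lower than BEC normal (all genes 31.5% and 32%). With a fold over 2, 0 were higher and 2 lower, Ccne1 and Prim2 (all genes 17.2% and 15.2%), and edgeR called 1 higher, Pold1, and the same 2 lower. The median log2 difference was 0.10, against 0.01 over all genes. Without HEC normal 2, 17 were higher and 10 lower. Organ and cell type cannot be told apart in this comparison.

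The genes that were higher in HEC normal were led by Pold1, at 12198 to 13105 against 5959.6 to 6642 in BEC normal (log2 difference 1.00 ± 0.06, just under 2-fold, adjusted p = 4.84e-67). Mcm7 was at 15374, 17909 and 17253 in BEC normal and at 29448, 30866 and 30376 in HEC normal (0.84 ± 0.06, adjusted p = 5.9e-41). E2f1 differed by 0.66 ± 0.07 (adjusted p = 2.65e-20). These 3 stood higher in every HEC normal library. Ccne1, at 4474 to 5054 in BEC normal and 1534 to 1583 in HEC normal, had the largest difference of the list (-1.60 ± 0.07, adjusted p = 1.95e-103). Prim2 was at 2199.8, 1984 and 2022 in HEC normal, under every BEC normal library (-1.50 ± 0.08, adjusted p = 1.57e-68). Rfc5 was at 5248, 5166 and 5389 in BEC normal, over every HEC normal library (-0.72 ± 0.08, adjusted p = 5.14e-19). By role, 8 of 17 licensing genes were higher and 3 lower, 8 of 14 fork genes were higher and 4 lower, and of the nucleotide genes Rrm1 was higher and Tk1 lower. Within the Mcm ring, Mcm5, Mcm6 and Mcm7 were higher, Mcm2 and Mcm4 lower, and Mcm3 did not pass.

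Values at the edge depended on the libraries and the fit. With the normal libraries fitted alone, Mcm5 (adjusted p = 0.0658), Rrm1 (0.0615) and Orc6 (0.053) did not pass, and Orc6 did not without the filter on low counts (0.0633). Mcm5 (0.16 ± 0.07, adjusted p = 0.0314) lost its call without BEC normal 1 (0.167), BEC normal 3 (0.0651) or any 1 HEC normal library (0.0506 to 0.0997). Rrm1 (0.10 ± 0.04, adjusted p = 0.0187) lost it without BEC normal 1 (0.0927), BEC normal 2 (0.12) or HEC normal 3 (0.057). Orc6 (0.13 ± 0.06, adjusted p = 0.0395) lost it without any 1 HEC normal library (0.0769 to 0.0913), BEC normal 2 (0.221), BEC normal 3 (0.111), BEC tumour 3 (0.0504) or HEC tumour 2 (0.0519). Gins4, not called, passed without BEC normal 1 (0.0281), and Ccne2 without BEC normal 2 (0.0187).

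Fen1, the flap endonuclease, was the least even member in BEC tumour and in HEC normal. It was at 7211, 8084 and 7980.5 in BEC normal and at 9422, 9856 and 3848 in BEC tumour. In HECs it was at 2618, 8786 and 2597 without a tumour and at 3625, 3426 and 2964 with one. HEC normal 2 thus stood above all BEC normal libraries and BEC tumour 3 near the HEC tumour libraries. HEC normal 2 is also the library with Chst4 near 0. The difference between HEC normal and BEC normal was -0.73 ± 0.52 (adjusted p = 0.214), and without HEC normal 2 it was -1.57 with an adjusted p of 8.01e-07. Of the 2422 merged exon bases of Fen1, 2039 overlap exons of Tmem258 or Gm10143 on the opposite strand, and use of strand in counting is not given in the sources used here, so its reads may not be told apart from theirs. Gins2 shares 2758 of 4097 exon bases with Gse1 in the same way, and shorter overlaps touch Mcm7, Cdc45, Orc1, Orc6, Rfc2, Rfc4, Rfc5, Pole, Lig1, Tk1 and Ccne2.

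With a tumour, more of the list stood lower in HECs than higher. HEC tumour had 6 genes higher and 19 lower than BEC tumour (all genes 26% and 28.5%). With a fold over 2, 0 were higher and 1 lower, Fen1 (all genes 11.3% and 10.7%; edgeR also called 0 and 1). The call of Fen1 (-1.21 ± 0.52, adjusted p = 0.0394) rested on single libraries, since it was lost without any 1 HEC tumour library (0.0768 to 0.12), BEC tumour 1 (0.159), BEC tumour 2 (0.18) or any 1 BEC normal library (0.0538 to 0.0554). The median log2 difference was -0.19 over the list and 0.01 over all genes. This comparison shares its libraries with the tumour comparisons above.

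After Fen1, the lowest were Pole and Ccne1. Pole was at 12546, 12599 and 11721 in BEC tumour and at 6475, 6017 and 6208 in HEC tumour (-0.98 ± 0.07, adjusted p = 1.4e-49). Ccne1 was at 3470.1 to 3919.7 and at 1934 to 1959 (-0.95 ± 0.07, adjusted p = 7.76e-37). Both were lower in every HEC tumour library. The 6 higher genes were Gins2, Gins3, Orc6, Pcna, Prim1 and Ccne2. Ccne2 was at 1849.6, 1547 and 1775 in BEC tumour, under every HEC tumour library (0.75 ± 0.14, adjusted p = 6.65e-07). Orc6 was at 5949, 5728 and 5701 in HEC tumour, over every BEC tumour library (0.67 ± 0.06, adjusted p = 1.66e-27). Prim1, the catalytic primase subunit, was at 5419.9, 5299 and 5597 in BEC tumour and at 7955, 8109 and 8776 in HEC tumour (0.61 ± 0.06, adjusted p = 4.55e-20). Of the nucleotide genes, Rrm1, Rrm2 and Tk1 were lower and Tyms did not pass (adjusted p = 0.164).

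Orc1 (adjusted p = 0.0227) lost its call with library totals (0.12), values divided by the step (0.0628) or the tumour libraries fitted alone (0.0548), and without BEC tumour 1 (0.0613), BEC tumour 2 (0.126) or HEC tumour 1 (0.13). Rpa2, a subunit of the single-strand binding protein (adjusted p = 0.0167), lost it with library totals (0.0592), and without BEC tumour 1 (0.053), BEC tumour 3 (0.0573), HEC tumour 1 (0.0634) or HEC tumour 2 (0.0547). Mcm10, not called, passed in edgeR (0.0478) or with TMM factors (0.0196), and without BEC normal 1 (0.0404), BEC normal 3 (0.0492) or BEC tumour 1 (0.0155). Rfc5 passed with TMM factors (0.0233) and without BEC tumour 1 (0.0122) or HEC tumour 2 (0.0314). Rfc3 passed with library totals (0.0426) and without HEC tumour 1 (0.0197). Pola2 passed with TMM factors (0.03) and without BEC normal 1 (0.0342), and Mcm4 with TMM factors (0.045).

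EO771 cells were treated with 12-HETE to show what the lipid does to tumour cells. Of the 39 genes, 18 rose and 2 fell at an adjusted p under 0.05, and 19 did not pass. EO771 libraries of the same number deviated together, and with that number as a block 16 rose and 2 fell. Over the 11602 genes tested, 22.7% rose and 24.2% fell. With a fold over 2, 2 members rose (Ccne2 and Pola1) and 0 fell (all genes 2.38% and 7.79%), and edgeR called 1 higher, Ccne2, and 0 lower. The median log2 change was 0.25, against 0.00 over all genes.

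Of the 17 licensing and helicase genes, 8 rose (Mcm2, Mcm3, Mcm4, Mcm6, Cdc6, Gmnn, Gins3 and Orc1). Mcm2 was at 5391, 5214 and 5211 normalised counts with vehicle and at 6199, 6317 and 5965 with 12-HETE (log2 fold change 0.22 ± 0.07, adjusted p = 0.00625), but did not pass with the replicate block (adjusted p = 0.065). Cdc6 was at 1359.7, 1413 and 1306 and then at 1790.0, 1809.5 and 1828 (0.41 ± 0.08, adjusted p = 7.46e-06). Gmnn was at 757, 946 and 822 and then at 1073, 1099 and 996 (0.33 ± 0.12, adjusted p = 0.018). In these 3 the 12-HETE libraries were all higher. Gins3 did not pass with the block either (adjusted p = 0.125). Mcm5 was at 4752, 4894 and 4489 and then at 5124, 5143 and 5059 and did not pass (0.12 ± 0.08, adjusted p = 0.204), and Mcm7 differed by -0.11 ± 0.11 (adjusted p = 0.424). Mcm10, which acts in starting the helicase, fell from 1772, 1775 and 1899 to 1319.6, 1435 and 1339 (-0.41 ± 0.09, adjusted p = 3.19e-05). Cdt1 fell from 2886, 2941 and 2673 to 2382, 2399 and 2294 (-0.26 ± 0.08, adjusted p = 0.00543). Both fell in every 12-HETE library, so the loader Cdt1 and its inhibitor geminin moved in opposite directions.

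Of the 14 fork genes, Pcna, Pola1, Prim1 and Lig1 rose and 0 fell, and with the replicate block Lig1 did not pass (adjusted p = 0.0237, and 0.1 with the block). Pola1, the polymerase of the primase complex, was at 422, 329.7 and 574 with vehicle and at 846, 844 and 963 with 12-HETE (log2 fold change 1.00 ± 0.20, adjusted p = 2.47e-06). Prim1, its primase partner, was at 1163, 1273 and 1235 and then at 2332, 2189 and 2196 (0.87 ± 0.09, adjusted p = 6.58e-21). Pcna was at 4812, 4999 and 4684 and then at 6831, 7150.4 and 6772 (0.52 ± 0.08, adjusted p = 1.39e-10). The groups did not overlap for these 3. The remaining subunits of the primase complex did not pass, with Pola2 at 0.06 ± 0.11 (adjusted p = 0.719) and Prim2 at 0.25 ± 0.12 (adjusted p = 0.0628). Pold1 (0.07 ± 0.09, adjusted p = 0.531) and Rfc2 (0.20 ± 0.09, adjusted p = 0.0745), which led the endothelial interaction, did not pass either.

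All 4 nucleotide supply genes rose. Rrm2 was at 3026, 3719 and 3331 with vehicle and at 5871, 6051 and 5974 with 12-HETE (log2 fold change 0.83 ± 0.10, adjusted p = 1.59e-14). Tyms was at 1026, 1283 and 1045 and then at 1412, 1426 and 1311 (0.31 ± 0.12, adjusted p = 0.0295). Every 12-HETE library was above every vehicle library for both. Rrm1 rose by 0.71 ± 0.07 (adjusted p = 9.39e-22) and Tk1 by 0.41 ± 0.13 (adjusted p = 0.00653).

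Ccne2 had the largest change of the list, from 434, 366 and 603 to 1091, 1220.2 and 1202 (1.32 ± 0.18, adjusted p = 6.57e-12). Ccne1 was at 873, 1298 and 919 and then at 1324, 1305 and 1302 (0.35 ± 0.16, adjusted p = 0.0649, and 0.0332 with the replicate block). E2f1 was at 1512, 2109.9 and 1442 and then at 1626, 1536 and 1489.9, with overlap (-0.12 ± 0.16, adjusted p = 0.543). For both genes vehicle 2 stood over the other vehicle libraries. Uhrf1 rose by 0.41 ± 0.13 (adjusted p = 0.00463).

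Vehicle libraries were less even than 12-HETE libraries, with a median coefficient of variation over the 39 genes of 11.04% against 2.70%. Without vehicle 2, 26 members rose and 2 fell, and Ccne1 passed at an adjusted p of 2.05e-08, as did Cdc45 (0.00138), Orc6 (0.0043), Rfc2 (0.00853), Rfc3 (0.00301), Prim2 (0.000982), Fen1 (0.0387) and Rpa2 (0.015). Shares over all genes are given for the main fit only (DESeq2, all libraries, no block). Counts from this and the other alternative fits have none beside them. Pole passed without vehicle 3 (0.045). Pola1 stood under the 2-fold limit without vehicle 1, vehicle 2 or 12-HETE 3, which left Ccne2 past it.

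Without 12-HETE 1 or 2, 12 members rose, and without 12-HETE 3, 13. Without any 1 of these libraries Cdt1 lost its call (adjusted p = 0.0623 to 0.0995), as did Mcm2 (0.0524 to 0.118), Gmnn (0.0515 to 0.131), Lig1 (0.128 to 0.16), Gins3 (0.12 to 0.168) and Tyms (0.073 to 0.154). Mcm6 lost it without 12-HETE 1 (0.0528) or 2 (0.0567). Gmnn, Gins3 and Tyms also lost it without vehicle 1 (0.124, 0.164 and 0.163), and Gins3 and Tyms without vehicle 3 (0.0801 and 0.0714). With library totals as size factors Gins3 (0.0571) and Tyms (0.0637) did not pass. The 8 epithelial markers summed to 3623 to 4601 CPM with vehicle and to 2679 to 2746 with 12-HETE, and the 8 fibroblast and pericyte markers to 390 to 614 and to 998 to 1037. In each EO771 group 2 of the 8 fibroblast and pericyte genes reached a mean of 1 CPM, and Lum was at 0. The part of these markers in the results was not tested.

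**Figure D5:**
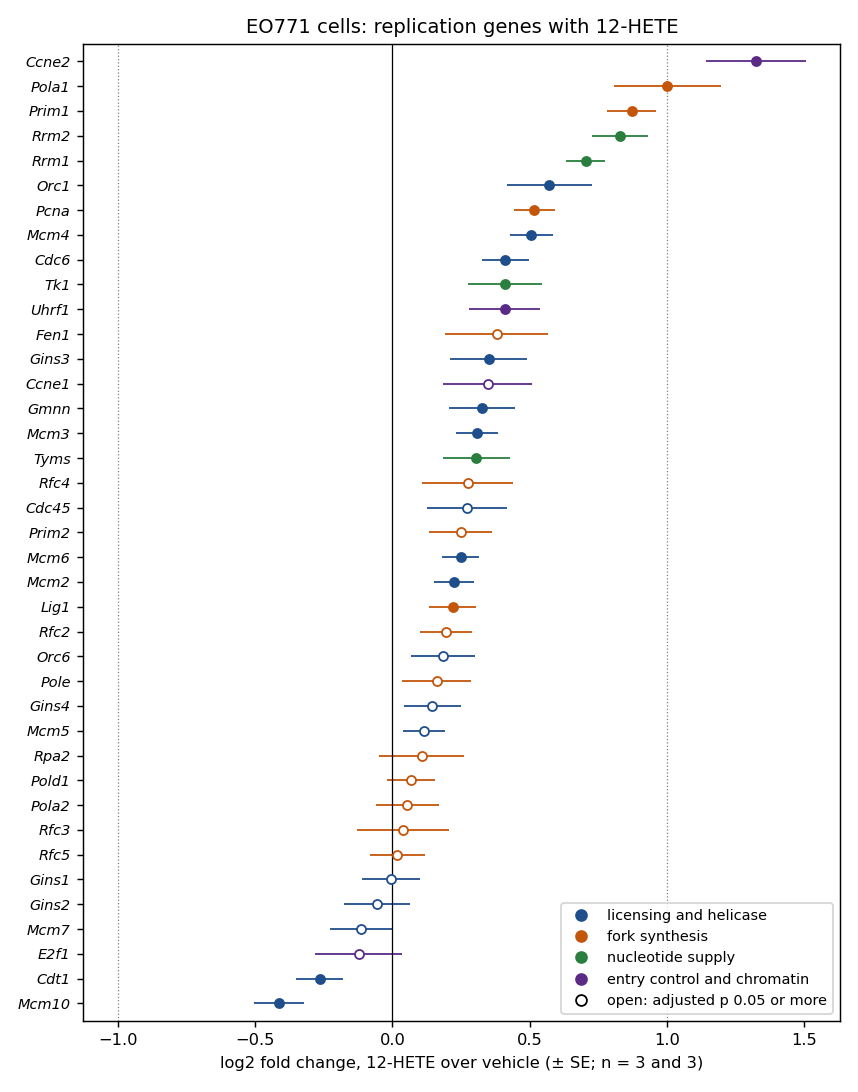
Log2 fold change of the 39 genes in EO771 cells, 12-HETE over vehicle (3 libraries a group), ± SE; filled points passed an adjusted p of 0.05 and colours give the role. Ccne2 and Pola1 lead at 1.32 and 1.00, and Mcm10 and Cdt1 lie lowest at -0.41 and -0.26.

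Set side by side without a test, 10 genes were called higher both with 12-HETE in EO771 cells (55.6% of 18) and with tumour in BECs (52.6% of 19), namely Mcm2, Mcm3, Mcm6, Orc1, Pcna, Pola1, Lig1, Rrm1, Rrm2 and Uhrf1. Over the 11110 genes tested in both tables, the shares were 28.7% of 2554 and 24% of 3057. With tumour in HECs the count was 7 members (38.9% of 18 and 70% of 10), namely Mcm4, Cdc6, Gins3, Pcna, Prim1, Rrm2 and Ccne2, against 25.6% of 2554 and 28.9% of 2270 over all genes. Pcna and Rrm2 were in both sets. Of all 39 members, 48.7% were called higher with tumour in BECs, 25.6% with tumour in HECs and 46.2% with 12-HETE. The 55.6% and 52.6% shared with BECs thus lie near the list's own shares of 48.7% and 46.2%.

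By promoter letters, the 13 genes with an E2F match had 10 higher and 1 lower in BEC tumour against BEC normal, with a median log2 change of 0.55, and the 17 genes with a promoter in the table and no match had 7 higher and 4 lower, with a median of 0.02 (all genes 26.6% and 27.3%). In HEC tumour against HEC normal the counts were 2 higher and 6 lower with a match and 5 higher and 1 lower without, with medians of -0.10 and 0.05 (all genes 17% and 18.6%). In HEC normal against BEC normal they were 10 and 0 with a match and 7 and 6 without, with medians of 0.43 and -0.06 (all genes 31.5% and 32%). In HEC tumour against BEC tumour they were 1 and 8 with a match and 3 and 8 without, with medians of -0.24 and -0.21 (all genes 26% and 28.5%). For the interaction they were 1 and 11 with a match and 4 and 7 without, with medians of -0.64 and -0.21 (all genes 23% and 23.8%). In EO771 cells they were 8 and 1 with a match and 7 and 1 without, with medians of 0.25 and 0.27 (all genes 22.7% and 24.2%). Of the promoters shown, Mcm5 and Cdc6 thus belong to the set with a match and Rrm2 to the set without. These are counts of few genes and were not tested. No counts over other genes with a match stand beside them, so they are not read as particular to replication genes.

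The wider replication machinery was read through 49 further genes, among them the remaining origin and polymerase subunits, checkpoint factors, histone chaperones and nucleotide enzymes. In BEC tumour against BEC normal 19 were higher and 12 lower (38.8% and 24.5%, against 26.6% and 27.3% of all genes; median -0.02), and in HEC tumour against HEC normal 18 were higher and 13 lower (36.7% and 26.5%, against 17% and 18.6%; median 0.10). Dnmt1, the maintenance DNA methyltransferase with which Uhrf1 acts, was called in both, at 1.17 ± 0.04 in BECs (adjusted p = 8.36e-209) and -0.38 ± 0.04 in HECs (adjusted p = 2.03e-22). Shmt1, which feeds thymidylate synthesis, went the other way, at -0.98 ± 0.08 and 0.63 ± 0.08. Pold3, a further subunit of polymerase delta, was higher in BEC tumour than in BEC normal (0.92 ± 0.07) and in HEC normal than in BEC normal (1.28 ± 0.07), the same pattern as Pold1. In HEC normal against BEC normal 21 of the 49 were higher and 15 lower (42.9% and 30.6%, against 31.5% and 32%), and in HEC tumour against BEC tumour 15 and 14 (30.6% and 28.6%, against 26% and 28.5%). The interaction passed for 13 higher and 17 lower (26.5% and 34.7%, against 23% and 23.8%).

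With 12-HETE, 28 of the 49 rose and 3 fell (57.1% and 6.12%, against 22.7% and 24.2% of all genes). Rpa1, the large subunit of the single-strand binding protein, had the largest test statistic, at 0.86 ± 0.08 (adjusted p = 1.38e-26), followed by Dck, a nucleoside kinase, at 1.08 ± 0.12 and Dna2, a flap nuclease, at 1.07 ± 0.13. The 3 that fell were Samhd1, an enzyme that breaks down dNTPs (-0.70 ± 0.12), Pold4 and Chtf8 (-0.24 ± 0.08).

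Of 29 genes that control the passage from G1 to S, 9 rose and 10 fell with tumour in BECs (31.0% and 34.5%, against 26.6% and 27.3% of all genes) and 8 rose and 6 fell in HECs (27.6% and 20.7%, against 17% and 18.6%). Ccnd1, cyclin D1, rose in HECs (0.46 ± 0.05, adjusted p = 3.47e-17), and Cdkn2c, an inhibitor of the cyclin D kinases, rose in BECs (1.85 ± 0.13) and fell in HECs (-0.51 ± 0.13). In HEC normal against BEC normal 7 were higher and 12 lower (24.1% and 41.4%, against 31.5% and 32%), led by Cdkn2a at -5.79 ± 0.20, and in HEC tumour against BEC tumour 6 and 11 (20.7% and 37.9%, against 26% and 28.5%). The interaction passed for 11 higher and 7 lower (37.9% and 24.1%, against 23% and 23.8%). With 12-HETE, 11 of the 26 tested rose and 6 fell (42.3% and 23.1%, against 22.7% and 24.2%). Myc fell (-2.64 ± 0.10, adjusted p = 1.05e-142), as did Cdkn1a, the p21 inhibitor (-1.33 ± 0.23), while E2f3 rose (0.71 ± 0.10).

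The 32 mitosis genes stand for the next phase of the cycle. In BECs with tumour 22 rose and 4 fell (68.8% and 12.5%, against 26.6% and 27.3% of all genes; median 0.38), and in HECs 0 rose and 19 fell (0% and 59.4%, against 17% and 18.6%; median -0.31). The 19 were led by Bub1b (-0.79 ± 0.04), Ncapd2 (-0.80 ± 0.05) and Plk1 (-0.67 ± 0.07), which act in the spindle checkpoint, in condensin and in mitotic entry. The interaction passed for 25 of the 32, lower in HECs for each (78.1%, against 23.8% of all genes), with a median of -0.71 beside -0.36 for the 39 replication genes. In HEC normal against BEC normal 22 were higher and 9 lower (68.8% and 28.1%, against 31.5% and 32%), and in HEC tumour against BEC tumour 5 and 18 (15.6% and 56.2%, against 26% and 28.5%). With 12-HETE 26 rose and 0 fell (81.2% and 0%, against 22.7% and 24.2%; median 0.54). Mki67, the Ki-67 antigen, was uneven within groups, at 22384, 18313 and 8112 normalised counts in BEC tumour and at 3871, 2915 and 7313 with vehicle, against 10552, 10295 and 11638 with 12-HETE.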

How the data were processed

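RNA-seq of 18 libraries in 6 groups of 3 was used, mapped to groups by the labels. Per the study's methods the authors aligned reads with STAR to GRCm38 and counted them with featureCounts; the labels give 1 kit for all libraries, while the methods name others, with a directional (stranded) kit for EO771 cells, and the strand setting of the counting is not given in the sources used here. The deposited EO771 values are whole read counts. The deposited endothelial values are estimated counts, whole numbers whose low values fall in steps of about 3.747, so their precision is that of fewer reads than their totals. No per-sample column was left unmapped, and no column of the authors' own comparisons was used.

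Genes with a mean of 10 or more were tested with DESeq2 1.42.0 (R 4.3.3; two-sided Wald test, Benjamini-Hochberg adjustment over all genes tested), in 1 fit of the 12 endothelial libraries (18511 genes, 18446 with an adjusted p) and 1 of the 6 EO771 libraries (11602). Called means an adjusted p under 0.05, with a fold over 2 where stated. Normalised counts are divided by DESeq2 size factors. The scripts were tested on simulated data. Alternatives were edgeR 4.0.16 (quasi-likelihood), TMM factors, library totals, no filter, the replicate block, each library left out, values divided by the step and fits of 2 groups.

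The members, the lists (49 other replication, 29 G1-S and 32 mitosis genes, and markers of T, B, myeloid, epithelial, fibroblast, adipocyte, lymphatic, general and high endothelial cells) and the tests were chosen with earlier results of these data known. By rule, library values were given for Mcm2, Mcm5, Cdc6, Gmnn, Pcna, Rrm2, Tyms, Ccne1 and E2f1 and for the 3 members with the largest change in each direction of each comparison, and examples of the lists were drawn from the 3 largest Wald statistics in each direction. Genes named for a lost or gained call, for a fold at the limit or for uneven libraries were chosen after their values were seen. Members given for the largest change were taken from those called, so that choice itself favoured libraries without overlap. EO771 samples of the same number deviated together (r = 0.111 to 0.328 over 9635 genes, against -0.229 to 0.0537 for different numbers), so the block is given beside the EO771 calls it changed.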

Additional observations from a re-analysis of the deposited data

Results flagged for a closer look

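With tumour, 7 genes changed differently in HECs and in BECs, by the test of the interaction in the DESeq2 fit and by over 2-fold. The difference (log2 change in HECs less that in BECs, 3 libraries a group) was -1.52 ± 0.08 for Pold1 (adjusted p = 3.69e-78), -1.41 ± 0.08 for Rfc2 (adjusted p = 1.05e-66), -1.16 ± 0.08 for Lig1 (adjusted p = 2.96e-47) and -1.13 ± 0.10 for E2f1 (adjusted p = 1.12e-28). For these genes the change was upwards in BECs and downwards in HECs. It was -1.09 ± 0.06 for Uhrf1 (adjusted p = 6.74e-71), which changed in BECs and did not pass in HECs, and -1.08 ± 0.09 for Mcm7 (adjusted p = 1.58e-33). In the other direction it was 1.01 ± 0.20 for Ccne2 (adjusted p = 3.21e-06), which rose in HECs and did not pass in BECs.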

How the results depend on the processing

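Of 4095 single-gene values under the alternatives, 3951 kept their direction and side of the threshold, 93 lost a call, 51 gained one and 0 called values changed sign. In 112 cases a value past the threshold in neither fit changed sign. Counts by adjusted p stayed within 1.5 times the reported count under every alternative that kept all libraries. Counts that also need a fold over 2 are small and moved by single genes near the limit. Pold1 in HEC normal against BEC normal passed it (1 higher in place of 0) under edgeR, TMM factors, library totals, values divided by the step and a fit of 2 groups. In BEC tumour against BEC normal 2 genes were higher (Uhrf1 and Pold1) under edgeR, TMM factors, library totals and 2 groups. In HEC tumour against HEC normal 1 was higher (Ccne2) under library totals, and in HEC tumour against BEC tumour 2 were lower (Fen1 and Pole) with 2 groups. The interaction had 0 higher under edgeR and TMM factors, and EO771 had 1 higher (Ccne2) under edgeR, TMM factors and library totals. Leaving out each library gave, for higher, lower, higher over 2-fold and lower over 2-fold, 16 to 19, 9 to 10, 0 to 1 and 2 to 3 in HEC normal against BEC normal. The ranges were 6 to 7, 16 to 20, 0 to 0 and 0 to 2 in HEC tumour against BEC tumour, 8 to 11, 8 to 10, 0 and 0 in HEC tumour against HEC normal, and 19 to 20, 5 to 7, 1 to 2 and 0 in BEC tumour against BEC normal. For the interaction they were 8 to 9, 20 to 21, 0 to 1 and 6 to 7, and for EO771 12 to 26, 1 to 2, 1 to 2 and 0. With the replicate block 18 and 9 were called in HEC normal against BEC normal, 7 and 21 in HEC tumour against BEC tumour, 10 and 9 in HEC tumour against HEC normal, 19 and 7 in BEC tumour against BEC normal, 9 and 21 for the interaction and 16 and 2 in EO771. Over all pairs, endothelial samples of the same number had r = -0.0282 to 0.126 (18 pairs), against -0.17 to 0.116 for different numbers. Between BEC normal and HEC normal, r was 0.0301 to 0.0416 for the same number and -0.0287 to -0.00655 for different numbers. Between BEC tumour and HEC tumour it was 0.0392 to 0.0692 and -0.0475 to 0.00233. In both of these comparisons the number may thus mark a weak pairing, which the sources do not describe. There the block lost Orc6 (adjusted p = 0.0756, without tumour) and gained Mcm10 (0.0179), Rfc3 (0.0418) and Rfc5 (0.0445, all with tumour). No scaling moved the median of all genes by over 0.1. The causes of these moves were not tested.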
